A study of Mus musculus with 48 samples.

Results

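The effect of BuOE on ground mice was measured in the frontal cortex (FCT) as the difference between 3 mice that received BuOE (GC-BuOE) and 3 that received saline (GC-SAL), 6 of the 48 areas of illumination (AOIs) of the study. The 6 AOIs were those on the slides GC_TX_2 and GC_SAL_2 in the table of FCT, with all 15782 genes compared and the row of negative-control probes left out. All 6 were male C57BL/6 mice, 10 weeks old by the labels, that lived for 35 days in flight hardware cages on the ground, with the ground protocol begun 3 days after the flight protocol. GC-BuOE mice received BuOE and GC-SAL mice saline. The stated dose was 1 mg/kg in 0.2 mL under the skin, first given 7 days before launch and then weekly during the flight. The other 6 FCT AOIs, 3 of FLT-BuOE and 3 of FLT-SAL mice flown for 35 days, entered the same fit. Each AOI is a whole-tissue area of 1 section of 1 mouse, so that neurons, glia and vessels were read together, and its position was chosen on GFAP, Iba1 and a nuclear stain. The 3 sections of a group shared 1 slide, so that the slide and the treatment cannot be told apart.

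BuOE, a porphyrin that carries manganese, acts as a mimic of superoxide dismutase. Superoxide dismutases turn superoxide into hydrogen peroxide, which catalase, glutathione peroxidases and peroxiredoxins then remove, and the transcription factor NRF2 drives many genes that supply these enzymes with reducing power. The frontal cortex holds layered glutamatergic neurons, GABAergic interneurons, astrocytes, microglia and myelinating oligodendrocytes. The ground comparison asks how gene expression differs with the drug in mice that were not flown.

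Deduplicated counts per AOI were 654566 to 966414 in GC-BuOE and 601288 to 897280 in GC-SAL. Q3 normalization had set the upper quartile of the gene counts to 40.02 in every AOI. Negative-control probes, which match no transcript, read 13.1 to 14.5 Q3-normalized counts in GC-BuOE and 12.8 to 15.9 in GC-SAL, and 82.4% to 86.7% and 73.7% to 85.2% of the genes lay above 1.5 times that value. The AOIs covered 163177 to 173293 square μm in GC-BuOE and 146259 in each of the 3 GC-SAL mice, without overlap, while nuclei per 1000 square μm overlapped (2.8 to 3.21 and 2.73 to 3.23). The cortical identity of FCT was checked on markers: over all 12 FCT AOIs Fezf2, a factor of deep-layer projection neurons, averaged 70.3 Q3-normalized counts against 22.5 in the dentate gyrus (DG), and Prox1, which marks dentate granule cells, averaged 30.8 against 112. In the cortex (CT) Fezf2 averaged 54.9 and Prox1 27.2, so that both markers set cortical areas apart from DG rather than FCT from CT.

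Between GC-BuOE and GC-SAL 1 of 15782 genes passed as a differentially expressed gene (DEG), 0.00634% of them, at a Benjamini-Hochberg (BH) adjusted p below 0.05 in limma and a change of more than 1.5-fold. That gene was Cacna2d3, which encodes the auxiliary α2δ-3 subunit of voltage-gated calcium channels, and it was higher with BuOE. Below the threshold, the genes of smallest p that were lower with BuOE included the clock gene Per3 and Trf, which encodes transferrin. Members of a list of synaptic vesicle genes mostly had a higher mean with BuOE, and members of a list of oligodendrocyte and myelin genes mostly a lower mean. The superoxide dismutases, catalase and the other antioxidant enzymes did not pass. With 3 mice a group the smallest two-sided p of an exact permutation test is 0.1, so that a single gene taken alone could not reach 0.05.

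The mean was higher with BuOE in 8137 genes, and the median log2 fold change (log2 FC), taken on the log2(Q3-normalized count + 1) scale, was 0.0087. At an unadjusted p below 0.05 there were 888 genes, where 5% of the genes is 789.1, with 510 higher (3.23%) and 378 lower (2.4%). The 3 GC-BuOE mice lay all above the 3 GC-SAL mice in 938 genes (5.94%) and all below in 767 (4.86%). On the log2 scale fold changes understate the change of genes near background. The edgeR quasi-likelihood test on recovered whole counts called 8 of 15779 genes (0.0507%), 2 higher and 6 lower, namely Cacna2d3 and Hbb-b1, and Bach2, Gm46238, Gm51999, Ms4a1, Per3 and Trf, while DESeq2 called 0 genes with 319 at an unadjusted p below 0.05.

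**Figure D1:**
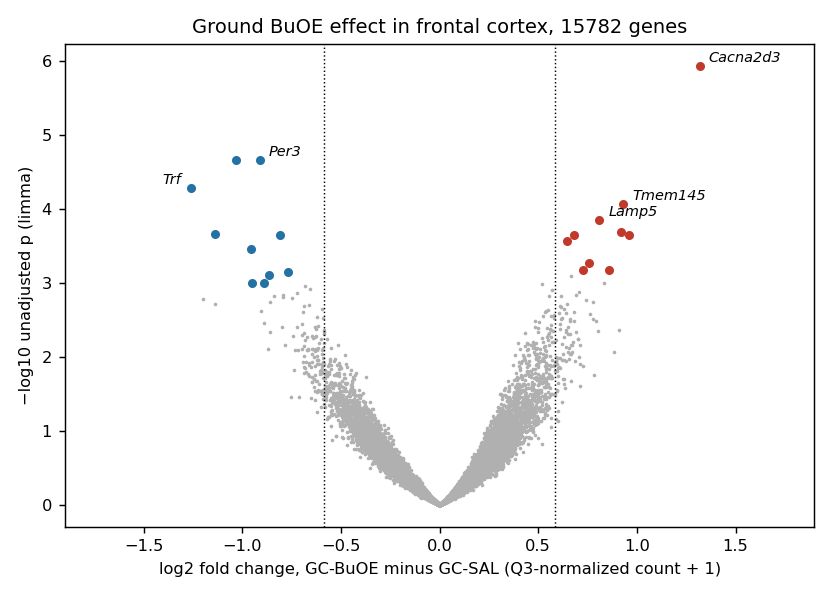
Ground BuOE effect in FCT for 15782 genes: log2 FC (x axis, GC-BuOE minus GC-SAL on the log2(Q3-normalized count + 1) scale) against −log10 of the unadjusted limma p (y axis). Coloured points are the 10 genes of smallest p in each direction among those above background, dotted lines mark a 1.5-fold change in each direction, and Cacna2d3, at 1.32, is the 1 gene that passed.

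Cacna2d3 lies on chromosome 14 from 28904943 to 29721864 on the minus strand (GRCm38) and is protein coding. Its Q3-normalized counts were 73.6, 48.2 and 56.4 in GC-BuOE mice 1, 2 and 3, and 14.7, 22.8 and 35.3 in GC-SAL mice 1, 2 and 3. The groups did not overlap, and the lowest GC-SAL mouse read close to the negative-control probes. The means were 59.4 ± 12.9 (SD, n = 3) and 24.3 ± 10.4 (SD, n = 3). The log2 FC was 1.32 (standard error (SE) 0.23, 95% confidence interval 0.84 to 1.79), or 2.49-fold, with a BH-adjusted p of 0.0184 in limma. The BH-adjusted p was 0.00805 in edgeR and 0.161 in DESeq2. When mouse 1 or 3 of GC-BuOE or mouse 1 of GC-SAL was left out, the log2 FC was 1.15, 1.34 and 1.02, and the adjusted p was 0.354, 0.0658 and 0.313 (limma).

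**Figure D2:**
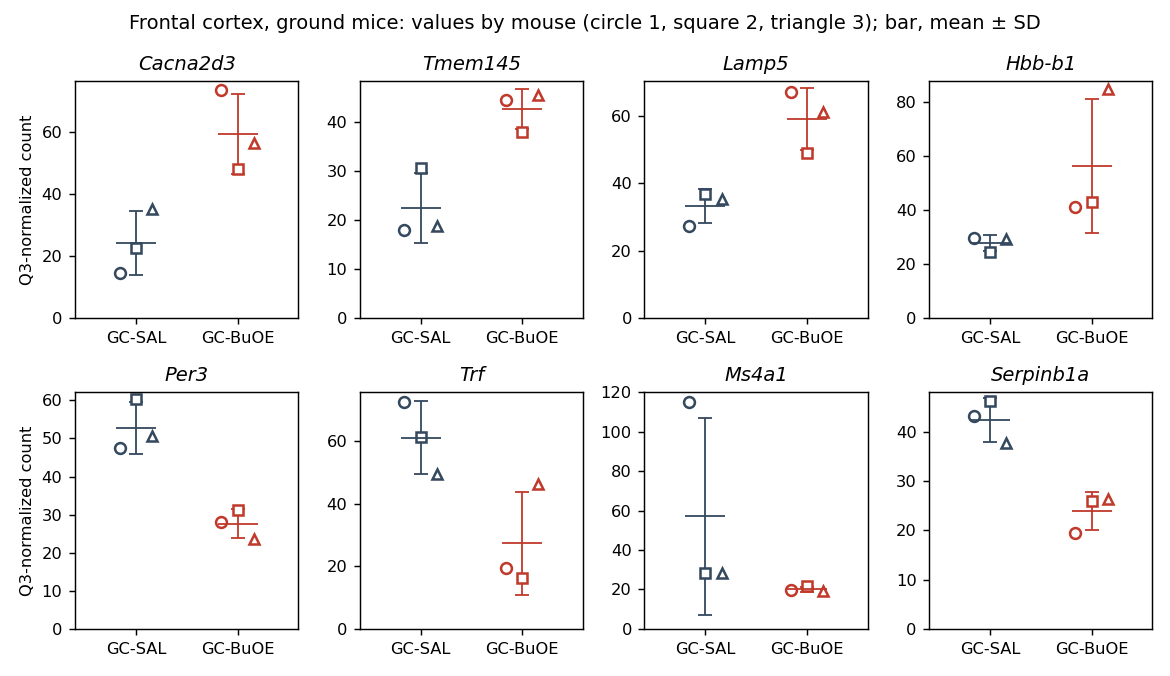
Q3-normalized counts (y axis, from 0) in the 6 ground FCT AOIs for the 4 genes of smallest p that were higher with BuOE (top) and for Per3, Trf, Ms4a1 and Serpinb1a, which were lower (bottom). Each symbol is 1 mouse and bars are the mean ± SD of 3. The groups do not overlap in any of the 8 panels, and in Ms4a1 the GC-SAL spread comes from 1 mouse at 115.

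The GC-SAL mean of 24.3 in FCT was the lowest of the 16 means of group and region, and the other 14 groups besides GC-BuOE in FCT lay between 35.0 and 77.6. The GC-BuOE mean of 59.4 lay inside that range. In the same ground mice Cacna2d3 averaged 52.2 ± 3.13 in GC-BuOE and 59.2 ± 6.98 in GC-SAL in the cortex (CT), 48.7 ± 8.64 and 50.8 ± 7.84 in CA, and 49.9 ± 7.10 and 38.3 ± 2.17 in DG (SD, n = 3 each). With BuOE the mean was thus lower in CT and CA and higher in DG. The log2 FC in FCT exceeded the mean of those in the other 3 regions by 1.27 (SE 0.24), with a BH-adjusted p of 0.0165 in a limma fit of the 24 ground AOIs with the mouse as a random block. Cacna2d3 was the 1 gene of 15782 that passed this test (0.00634%), with 639 genes at an unadjusted p below 0.05, and it did not pass when GC-BuOE mouse 1 (1.04) or mouse 1 (0.99) or 2 (1.27) of GC-SAL was left out.

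**Figure D3:**
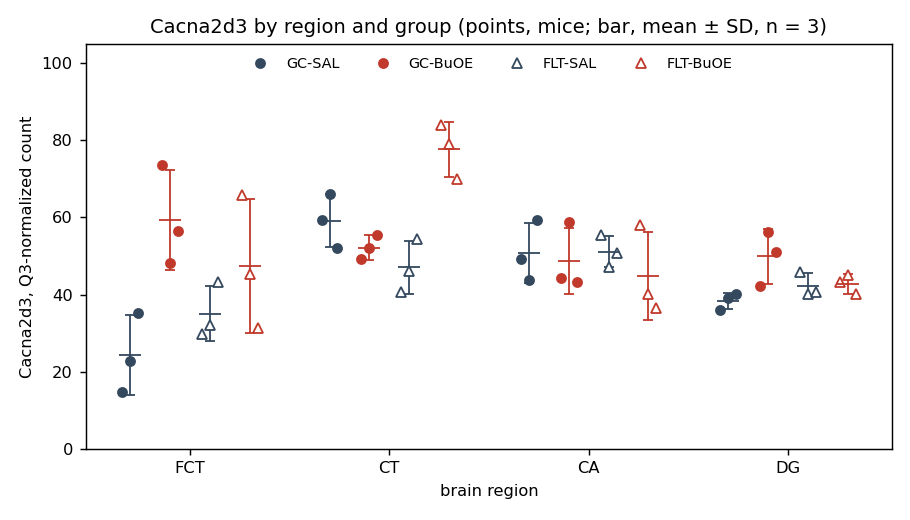
Q3-normalized counts of Cacna2d3 (y axis, from 0) in 4 brain regions (x axis) and 4 groups. Points are mice and bars are the mean ± SD of 3. In FCT the 3 GC-SAL mice sit between 14.7 and 35.3, and the 3 GC-BuOE mice between 48.2 and 73.6.

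The other α2δ subunits read 1.17 to 1.96 times the negative control and did not pass. Cacna2d1 had a log2 FC of 0.25 (SE 0.28), Cacna2d2 0.23 (SE 0.25) and Cacna2d4 -0.10 (SE 0.28), and the mice overlapped in all 3. These subunits were looked up after the value of Cacna2d3 was known.

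The 9 further genes of smallest p with a higher mean in GC-BuOE did not pass, with BH-adjusted p of 0.271 to 0.667 in limma. Their log2 FCs ran from 0.64 to 0.96. Tmem145, a transmembrane protein gene on chromosome 7 from 25306106 to 25316195, read 44.3, 37.8 and 45.5 in GC-BuOE and 17.9, 30.6 and 18.8 in GC-SAL. The log2 FC was 0.93 (SE 0.22). The GC-SAL mean of 22.4 lay below the other 14 group means outside the FCT ground groups (29.1 to 49.8). The GC-BuOE mean of 42.5 lay within them. Lamp5, on chromosome 2 from 136052239 to 136069917, encodes a membrane protein of the lysosome-associated family and marks upper cortical layers and a class of interneurons. It read 67.1, 48.9 and 60.9 against 27.4, 36.9 and 35.3, a log2 FC of 0.81 (SE 0.19), without overlap.

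Among the same 9 were genes of ion channels, lipid transport and vesicles. Kcnh5, a voltage-gated potassium channel, read 57.3, 36.3 and 39.1 against 22.1, 28.3 and 16.5 (log2 FC 0.96). Its GC-SAL mean of 22.3 lay below the other 14 group means outside the FCT ground groups (27.7 to 75.8). Its GC-BuOE mean of 44.3 lay within them. Osbpl8, a lipid transfer protein of the endoplasmic reticulum, read 61.7, 73.4 and 60 against 42.1, 43.2 and 35.3 (log2 FC 0.68). Rab3c, a small GTPase of synaptic vesicles, read 51.9, 61.5 and 50.0 against 26.3, 49.4 and 25.9, with GC-SAL mouse 2 just under the GC-BuOE mice. Serinc3 (0.64) and Pdzrn3 (0.76) also had mice that did not overlap. Bhlhe40, a transcriptional repressor that acts on clock genes, had a log2 FC of 0.86 with overlapping mice (68.1, 36.3 and 46.4 against 14.7, 29.8 and 41.2).

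Hbb-b1, a β-globin gene, read 41.1, 43.0 and 84.6 in GC-BuOE and 29.5, 24.3 and 29.4 in GC-SAL. The log2 FC was 0.92 (SE 0.23), and without GC-BuOE mouse 3 it was 0.59. Hba-a1, an α-globin gene and the measured member of the blood list, had the same high mouse, with 59.5, 74.9 and 166 in GC-BuOE and 55.8, 33.7 and 67.1 in GC-SAL (log2 FC 0.84, 0.40 without that mouse). Globin genes have near-identical copies, so that their probes cannot be assigned to 1 gene with certainty. Whether the blood left in the vessels of the section took part in the globin values was not tested.

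The 10 genes of smallest p with a lower mean in GC-BuOE did not pass, with BH-adjusted p of 0.115 to 0.715 in limma and log2 FCs from -1.26 to -0.77. In bulk sections such as these, fewer cells of a type and less RNA per cell cannot be told apart.

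Trf encodes transferrin, the iron carrier that oligodendrocytes make in the brain, and lies on chromosome 9 from 103204001 to 103230444. It read 19.5, 16.3 and 46.4 in GC-BuOE and 72.7, 61.2 and 49.4 in GC-SAL, so that GC-BuOE mouse 3 nearly reached the lowest GC-SAL mouse. The GC-SAL mean of 61.1 lay above the other 14 group means outside the FCT ground groups, which ran from 19.5 to 43.9. The GC-BuOE mean of 27.4 lay within them. The log2 FC was -1.26 (SE 0.28, BH-adjusted p = 0.205 in limma), and it was -1.71 without GC-BuOE mouse 3. Trf passed as a DEG without that mouse and in a fit of the 6 ground AOIs alone (BH-adjusted p = 0.00685 in limma).

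Per3, a period gene of the circadian clock on chromosome 4 from 151003652 to 151044665, read 28.1, 31.1 and 23.6 in GC-BuOE and 47.4, 60.4 and 50.6 in GC-SAL. The groups stood well apart, with a log2 FC of -0.91 (SE 0.19, BH-adjusted p = 0.115 in limma). It was -0.81 or lower with each mouse left out, and Per3 passed in edgeR (BH-adjusted p = 0.041). The GC-BuOE mean of 27.6 lay below the other 14 group means outside the FCT ground groups, which ran from 39.4 to 68.4, while the GC-SAL mean of 52.8 lay within them.

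Serpinb1a, an inhibitor of neutrophil proteases, read 19.5, 25.9 and 26.4 against 43.2, 46.3 and 37.7 (log2 FC -0.81), without overlap. Col5a1, a collagen V chain, overlapped by 1 mouse (27.0, 50.4 and 41.8 against 88.5, 50.2 and 80.0). Its GC-SAL mean of 72.9 lay above the other 14 group means outside the FCT ground groups (20.7 to 52.8). Its GC-BuOE mean of 39.8 lay within them. Kcnj8, a potassium channel of pericytes and vascular smooth muscle, read 17.3, 20.0 and 11.8 against 25.3, 57.3 and 22.4. Ms4a1, which encodes the B cell antigen CD20, read 19.5, 21.5 and 19.1 against 115, 28.3 and 28.3, and its log2 FC was -0.48 without GC-SAL mouse 1. Also among these genes were Sdr16c6 (-0.96), 3110009E18Rik (-0.77) and Fam166a (-0.89), at 1.54 to 1.99 times the negative-control value.

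The antioxidant genes that act on the products of superoxide were read next, since BuOE stands in for the first enzyme of this chain. Of 20 antioxidant enzymes measured, 0 passed and 13 had a higher mean with BuOE. At an unadjusted p below 0.05, 2 were higher and 0 lower, where 3.23% and 2.4% of all genes were. The median log2 FC of the list was 0.12 against 0.0087 over all genes. That median was 0.013 without GC-BuOE mouse 2 and -0.025 with the AOI area as a covariate. Here and below, the slope of the area fit rests on the 3 GC-BuOE mice, because the area did not vary within the other groups. Sod1, the cytosolic copper-zinc dismutase, read 115, 148 and 102 in GC-BuOE and 118, 127 and 90.6 in GC-SAL, with full overlap. Its log2 FC was 0.12 (SE 0.16, 95% confidence interval -0.21 to 0.44). Sod2, the manganese dismutase of mitochondria, read 75.7, 78.6 and 81.9 against 67.4, 56.5 and 69.5, without overlap, and the log2 FC of 0.29 (95% confidence interval -0.04 to 0.62) did not pass.

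Txnrd1, the cytosolic thioredoxin reductase, had the largest log2 FC of the antioxidant list at 0.61 (SE 0.23, BH-adjusted p = 0.766 in limma). It read 31.4, 28.9 and 30.0 in GC-BuOE and 24.2, 18.0 and 16.5 in GC-SAL, without overlap. Prdx4, a peroxiredoxin of the endoplasmic reticulum, had 0.48, and Ccs, the copper chaperone of Sod1, had 0.41, both with overlapping mice. Catalase (Cat, 0.03), Gpx1 (-0.06) and Hmox1 (0.06) had values near 0, with Hmox1 at 1.42 times the negative control.

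The NRF2 and glutathione list gave no common direction, with 12 of 27 members higher and a median of -0.03. At an unadjusted p below 0.05, 1 was higher and 2 lower, against 3.23% and 2.4% of all genes. Taldo1, an enzyme of the pentose phosphate pathway that feeds NADPH supply, had a log2 FC of -0.48, and Ftl1, the ferritin light chain, -0.35. Of 25 genes of metallothioneins, manganese, iron and heme, 16 were higher (median 0.06), and 1 was higher and 1 lower at an unadjusted p below 0.05, the lower being Trf. The metallothioneins Mt1 and Mt2, which bind zinc and copper, had log2 FCs of 0.32 and 0.35. Mt2 read 93.0, 74.9 and 85.5 against 56.9, 80.0 and 62.4, so that 1 GC-SAL mouse fell among the GC-BuOE mice. None of these genes passed.

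Genes of synaptic vesicles and exocytosis leaned higher with BuOE. Of 40 measured, 37 had a higher mean, 13 had all GC-BuOE mice above all GC-SAL mice and 0 the reverse, where 5.94% and 4.86% of all genes did, and 9 had an unadjusted p below 0.05 against 3.23% of all genes. The median log2 FC was 0.22, it stayed between 0.13 and 0.25 in 22 alternatives and was 0.07 with the area as a covariate, and 0 members passed. Syn1, which tethers synaptic vesicles, read 277, 279 and 244 in GC-BuOE and 194, 206 and 206 in GC-SAL (log2 FC 0.40, SE 0.14). Cplx1, a complexin that clamps vesicle fusion, read 409, 225 and 362 against 194, 220 and 272 (0.51), with overlap. The sum over the 40 genes was 5403, 5502 and 5127 in GC-BuOE and 4565, 4614 and 4432 in GC-SAL, an exact two-sided permutation p of 0.1, the smallest that 3 against 3 can give.

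Of 42 calcium signalling genes, 29 had a higher mean, and 7 were higher and 0 lower at an unadjusted p below 0.05, where 3.23% and 2.4% of all genes were. All GC-BuOE mice lay above all GC-SAL mice in 7 and below in 1, against 5.94% and 4.86% of all genes. The median log2 FC was 0.15, and it was 0.08 with quantile normalization and -0.11 with the AOI area as a covariate. Camkk2, a kinase that activates calmodulin-dependent kinases, read 82.2, 79.3 and 69.1 against 47.4, 52.6 and 56.5 (log2 FC 0.55, SE 0.17). Cacna1i, a T-type calcium channel (0.49), and Calm3, a calmodulin gene (0.42), also had mice that did not overlap. Cacna2d3 is not in this list. None of the 42 passed.

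Of 34 glutamate and GABA receptor subunits, 24 had a higher mean, with a median of 0.05. At an unadjusted p below 0.05, 1 was higher and 0 lower, where 3.23% and 2.4% of all genes were. The kainate receptor subunits Grik5 and Grik3 had log2 FCs of 0.36, without overlap of the mice, and -0.40, with overlap. Of 24 neuropeptide precursor genes 13 were higher, with a median of 0.02 and 1 higher at an unadjusted p below 0.05. That gene, Adcyap1, which encodes the peptide PACAP, read 32.5, 23.7 and 23.6 against 15.8, 18.8 and 16.5 (0.60). Chga had 0.33 and Tac1 -0.33.

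Oxidative phosphorylation, which makes ATP at the mitochondrial membrane and is a source of superoxide, was read through 88 genes. They were picked by symbol pattern, and not all of them encode subunits. The lowest, Uqcc1 (-0.48), encodes an assembly factor. A higher mean with BuOE was found in 68, with 15 apart in that direction and 1 in the other, against 5.94% and 4.86% of all genes. At an unadjusted p below 0.05, 4 were higher and 2 lower, close to the 3.23% and 2.4% of all genes. The median log2 FC was 0.12 and 0 passed, and the median was 0.07 with quantile normalization and -0.0034 with the area as a covariate. By complex, 30 of 39 genes of complex I, 4 of 4 of complex II, 7 of 12 of complex III, 12 of 15 of complex IV and 14 of 17 of complex V were higher, with medians of 0.14, 0.26, 0.09, 0.10 and 0.12. Cox6c of complex IV read 145, 113 and 119 against 104, 97.3 and 77.7 (0.43), Atp5d of complex V 87.6, 88.9 and 81.9 against 63.2, 73.0 and 57.7 (0.41), and Ndufc2 of complex I had 0.41.

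Of 81 cytosolic ribosomal protein genes, 57 had a higher mean and 2 were higher at an unadjusted p below 0.05, against 3.23% of all genes. The median was 0.06, but it was -0.05 with quantile normalization, -0.02 without GC-BuOE mouse 2 and -0.37 with the area as a covariate. Rpl32l (0.54), Rpl22l1 (0.37) and Rpl24 (0.36) had the smallest p of that list, which was picked by symbol pattern. Rpl32l is annotated as a processed pseudogene.

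**Figure D4:**
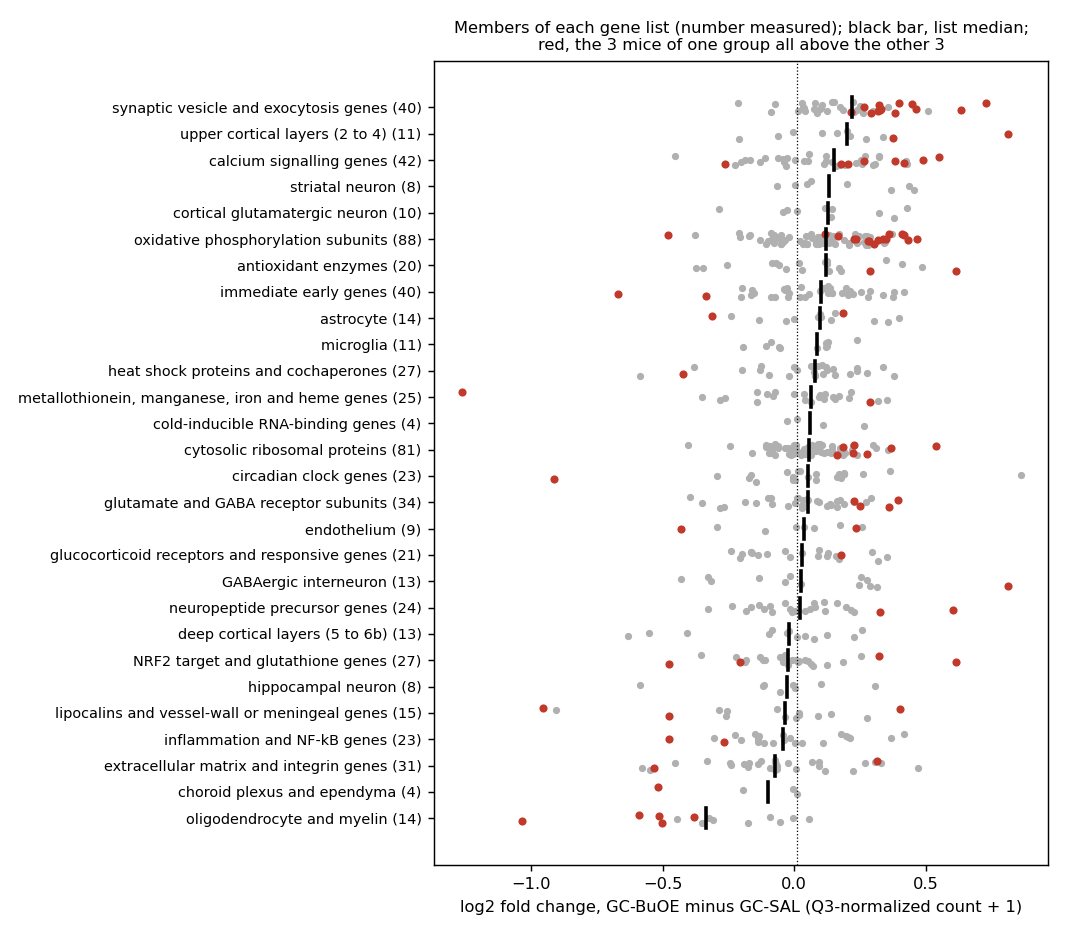
Log2 FCs (x axis, GC-BuOE minus GC-SAL) of the measured members of 28 gene lists (rows, with the number measured). Black bars are list medians, from -0.34 in oligodendrocyte and myelin genes to 0.22 in synaptic vesicle genes, the dotted line is the median of all genes, and red points are genes whose 3 mice of one group all lie above the 3 of the other.

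Oligodendrocyte and myelin genes were the list with the lowest median, -0.34, and 13 of 14 had a lower mean with BuOE. At an unadjusted p below 0.05, 5 were lower and 0 higher, against 2.4% and 3.23% of all genes. All GC-BuOE mice lay below all GC-SAL mice in 5, against 4.86% of all genes, and 0 passed. Mobp, a myelin basic protein of oligodendrocytes, read 190, 148 and 276 against 289, 324 and 285 (log2 FC -0.59, SE 0.19). Ermn, a cytoskeletal protein of myelinating cells, read 36.8, 28.2 and 39.1 against 48.4, 49.4 and 50.6 (-0.51). Mbp, the myelin basic protein gene itself, had -0.18 (SE 0.16) with overlapping mice.

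All 14 measured genes of the myelin list lay at 1.5 times the negative control or more. Their summed level was 926, 746 and 1239 in GC-BuOE and 1283, 1491 and 1274 in GC-SAL, without overlap (exact two-sided permutation p of 0.1, the smallest possible). The spread within GC-BuOE was wide, with mouse 3 close to the GC-SAL mice, and the list median was -0.49 without mouse 3 and -0.22 without mouse 2. With the AOI area as a covariate the median was 0.68, a fit whose slope rests on the 3 GC-BuOE mice because the area did not vary within the other groups. In the same fit the sign also turned for Trf (1.42). The summed myelin level and the synaptic list moved with the group in opposite directions, and their part in each other's values was not tested.

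Of 14 astrocyte genes 9 were higher (median 0.10), and 1 was higher at an unadjusted p below 0.05 (Aldoc at 0.40), against 3.23% of all genes. S100b had 0.36 and Gfap, the intermediate filament of reactive astrocytes, read 29.2, 31.1 and 25.5 against 41.1, 34.5 and 31.8 (-0.31). Of 11 microglia genes 6 were higher, with a median of 0.09 and 0 at an unadjusted p below 0.05. The complement genes C1qb and C1qc had -0.20 and 0.12, and Trem2, at 1.39 times the negative control, 0.24. Of 9 endothelial genes 6 were higher (median 0.04), among them Cdh5 (0.26), while Slco1a4 had -0.29 and the glucose transporter Slc2a1 -0.43, with 1 lower at an unadjusted p below 0.05. Of 15 lipocalin, vessel-wall and meningeal genes 7 were higher (median -0.04), and 3 were lower at an unadjusted p below 0.05, against 2.4% of all genes. Apod, an apolipoprotein of oligodendrocytes and perivascular cells, read 27.0, 29.6 and 58.2 against 65.3, 90.2 and 54.1 (-0.90), and Mgp had -0.48. Ptgds, a prostaglandin D synthase of meninges and oligodendrocytes, had -0.29 (SE 0.21) with overlapping mice. Of 4 choroid plexus and ependyma genes 1 was higher, with Aqp1 at -0.52, Clic6 at -0.19 and Foxj1 at 0.01.

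Markers of the main neuron classes had medians at or above 0. Of 10 cortical glutamatergic markers 7 had a higher mean, with a median of 0.13, and 2 were higher at an unadjusted p below 0.05, against 3.23% of all genes. Their summed level was 2730, 2370 and 2382 in GC-BuOE and 2065, 1971 and 2052 in GC-SAL, without overlap, but taken singly 0 of the 10 had mice that did not overlap. Nrgn (means of 1444 and 1149) and Camk2a (506 and 375) were the most abundant of the 10 and weigh most in the sum. A lower mean was found in 3, with Tbr1 at -0.29, and the list median was -0.26 with the AOI area as a covariate. Camk2a, a kinase of excitatory synapses, read 565, 574 and 380 against 397, 439 and 290 (0.43), and Nrgn, a calmodulin-binding postsynaptic protein, had 0.32. Of 13 interneuron genes 7 were higher (median 0.03), with Lamp5 the 1 at an unadjusted p below 0.05, Gad2 at 0.29 and Adarb2 at -0.43.

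Upper layer markers (layers 2 to 4) had a higher mean in 8 of 11 genes (median 0.20), with Lamp5 at 0.81, Rspo1 at 0.37 and Cux2 at 0.34. A lower mean was found in 3, with Scnn1a lowest at -0.21. Without GC-BuOE mouse 1 the median was 0.06. Summed upper layer levels overlapped, from 317 to 414 in GC-BuOE and from 278 to 319 in GC-SAL. Deep layer markers (layers 5 to 6b) had a higher mean in 6 of 13 (median -0.02), and 2 were lower at an unadjusted p below 0.05, against 2.4% of all genes. Hs3st4, a layer 6 marker, read 70.3, 73.4 and 101 against 144, 100 and 114 (-0.55), and Syt6, a synaptotagmin of layer 6, read 23.8, 32.6 and 44.6 against 65.3, 37.7 and 54.1 (-0.63), both with overlap. Nxph4 had -0.41. Summed deep layer levels overlapped, from 485 to 554 in GC-BuOE and from 497 to 641 in GC-SAL. Of 8 striatal markers 7 were higher (median 0.13, with Drd1 at 0.45, Foxp1 at 0.44 and Pde10a at 0.37), and of 8 hippocampal markers 3 were (median -0.03, with Lct at -0.59, Hpca at 0.31 and Prox1 at -0.12). None of the genes of these lists passed.

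Genes of neuronal activity and stress did not pass either. Of 40 immediate early genes 25 had a higher mean (median 0.10). At an unadjusted p below 0.05, 0 were higher and 1 lower, where 3.23% and 2.4% of all genes were. Arc, an activity-regulated cytoskeletal gene, varied widely among the mice, with 518, 156 and 366 in GC-BuOE and 364, 176 and 373 in GC-SAL (log2 FC 0.10, 95% confidence interval -0.37 to 0.58). Fos had -0.02, Egr3 0.34, Fosl2 0.37 and Ier2 -0.67. Of 27 heat shock genes 19 were higher (median 0.08), 1 was higher and 2 lower at an unadjusted p below 0.05. Cryab, a small heat shock protein made by oligodendrocytes and astrocytes, had -0.58 with 90.9, 58.6 and 134 against 118, 152 and 135, Hspa4 had -0.42 and Dnajb5 0.34.

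Of 21 glucocorticoid-responsive genes 11 were higher (median 0.03). At an unadjusted p below 0.05, 1 was higher, namely Mt2, where 3.23% of all genes were higher and 2.4% lower. Per1, which responds to both glucocorticoids and the clock, had -0.16. Of 23 clock genes 15 were higher (median 0.05), 1 was higher (Bhlhe40) and 1 lower (Per3) at an unadjusted p below 0.05, and Arntl, the partner of Clock, had 0.36. The cold-inducible RNA-binding genes Rbm3 and Cirbp had -0.03 and 0.01. Rtn3 and Sfpq, read in the same list of 4 genes (3 higher, median 0.06), had 0.26 and 0.11. Of 23 inflammation genes 9 were higher (median -0.04), and 0 had an unadjusted p below 0.05. Ifit3, an interferon-induced gene, had 0.42, B2m 0.37 and the chemokine Ccl3 -0.48. Of 31 matrix and integrin genes 11 were higher (median -0.07), 1 was higher and 2 lower at an unadjusted p below 0.05. The collagen Col6a1 read 53.0, 68.2 and 80.0 against 90.6, 89.5 and 109 (-0.53), Col1a2 had -0.58 and the brain proteoglycan Bcan 0.47.

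The ground effect was then set beside the BuOE effect in flight, the difference of FLT-BuOE and FLT-SAL in FCT, which shares neither mice nor slides with it. The flight groups differed without overlap in AOI area, at 145393 square μm in each FLT-BuOE mouse and 198761 in each FLT-SAL mouse. Deduplicated counts were 484300 to 793099 and 991160 to 1579380, and negative-control probes read 12.1 to 13.0 and 15.2 to 18.0. The part of these differences in the flight values was not tested. In flight 5 genes passed, 3 of them higher, and 1208 had an unadjusted p below 0.05. Over all genes Pearson's correlation of both fold changes was 0.10, across genes that are not independent, and 52.8% had the same sign. Of the 10 genes of smallest p that were higher on the ground, 9 were higher in flight too, against 41.8% of the 8137 genes higher on the ground. Of the 10 that were lower, 9 were lower in flight, against 64.6% of 7645 genes. Both shares were taken without the background filter that the named genes had passed, and the median flight log2 FC of all genes was -0.07. For the 10 higher genes the median in flight was 0.17 against 0.83 on the ground, and for the 10 lower genes -0.23 against -0.93. Because these genes were picked by their ground p, smaller values in any other comparison follow from the choice. No difference between flight and ground can be read from these medians. Cacna2d3 had 0.38 in flight (SE 0.23), Tmem145 0.65, Trf -0.72 and Per3 -0.09.

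**Figure D5:**
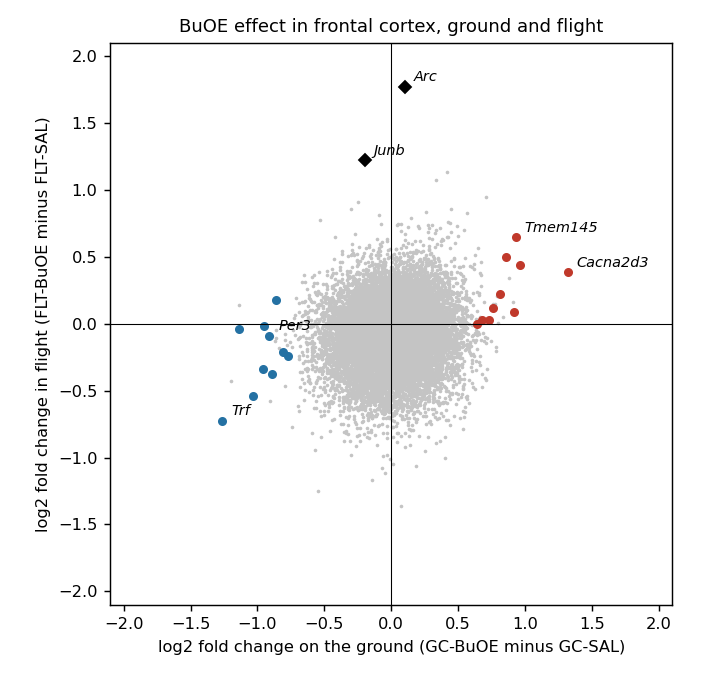
Log2 FC with BuOE on the ground (x axis) and in flight (y axis) in FCT for 15782 genes. Red and blue points are the 10 genes of smallest p in each direction on the ground, and black diamonds are Junb and Arc. Junb lies at -0.20 on the ground and 1.22 in flight, and Cacna2d3 at 1.32 and 0.38.

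The difference between both effects was tested in the same fit, and 1 gene of 15782 passed (0.00634%), with 857 at an unadjusted p below 0.05. That gene was Junb, an AP-1 transcription factor and immediate early gene on chromosome 8 from 84974484 to 84978718. On the ground it read 82.2, 59.3 and 63.7 with BuOE and 94.8, 68.3 and 73.0 with saline, with overlap and a log2 FC of -0.20 (SE 0.16). In flight it read 140, 145 and 133 with BuOE and 63.5, 52.9 and 61.2 with saline, without overlap and with a log2 FC of 1.22. The flight effect exceeded the ground effect by 1.42 (SE 0.23, BH-adjusted p = 0.0025 in limma), and this difference passed with each of the 12 mice left out in turn. Arc differed by 1.67 (BH-adjusted p = 0.0683 in limma) and did not pass, but it passed with quantile normalization, with the replicate block, and without mouse 1 of FLT-SAL, mouse 1 of GC-BuOE or mouse 2 of GC-SAL. For Cacna2d3 the flight effect was lower than the ground effect by a difference of -0.93 (SE 0.33, BH-adjusted p = 0.9 in limma), which did not pass.

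In the other regions of the same ground mice, GC-BuOE against GC-SAL gave 0 genes past the thresholds in CT, CA and DG in limma, with 596, 884 and 822 genes at an unadjusted p below 0.05 and smallest BH-adjusted p of 0.518, 0.328 and 0.733. These comparisons share mice and slides with FCT. Trf had log2 FCs of 0.18 in CT, -0.24 in CA and -0.05 in DG, and Per3 -0.23, -0.17 and -0.53. The summed myelin level in CT was 1063 to 1278 in GC-BuOE and 967 to 1025 in GC-SAL, higher with BuOE and opposite to FCT. The lowest of these, GC-SAL mouse 1, had a CT AOI of 140 nuclei, or 0.96 per 1000 square μm. The other ground CT AOIs had 2.25 to 2.73, and the other GC-SAL mice had sums of 1025 and 1002. In DG the myelin sum was 615 to 700 in GC-BuOE and 717 to 777 in GC-SAL, lower without overlap as in FCT, and in CA it overlapped (714 to 745 and 689 to 783). In FCT of flight mice the myelin sum was 1019 to 1300 in FLT-BuOE and 1465 to 2209 in FLT-SAL, also lower without overlap. AOI areas did not overlap between these flight groups either. No gene of the myelin list passed the test of the difference between the regions.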

How the data were processed

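RNA was measured by GeoMx digital spatial profiling of formalin-fixed brain sections. The authors processed reads with the GeoMx NGS Pipeline 2.3.4 and deposited deduplicated counts per probe. The authors also deposited the Q3-normalized signal per gene, each AOI scaled to equal upper quartile, which was analysed here. Their 12 tables of log2 fold changes and p-values were not used. No genome build enters, and coordinates are from GENCODE M21 (GRCm38), matched by symbol.

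Log2(Q3-normalized count + 1) of 12 FCT AOIs was fitted with limma 3.58.1 in R 4.3.3, with the group as factor, 8 residual degrees of freedom, variances moderated with a trend on mean expression, and p-values BH-adjusted over 15782 genes. Because slides carry groups, no slide term could be fitted. Separate mice are the replicates. As alternatives, edgeR 4.0.16 and DESeq2 1.42.0 were run on 15779 genes whose whole counts were recovered (99.98% of values within 0.02 of a count), beside other scalings, pseudocounts of 0.5 and 5, a filter, covariates and each mouse left out. Tests were tried on simulated data.

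Named genes are those that passed, the 10 of smallest p in each direction above 1.5 times the negative control, 3 of smallest p in each of 29 lists, a fixed set (among them Sod1, Arc and Apod; Sod3 was not analysed here) and those that passed the tests of differences. Bach2, Camk2n1, Gm46238, Gm51999, Mbp, Scnn1a, Tbr1, Uqcc1 and the α2δ genes were named after their values were seen. Fezf2 was also named outside the rule. The comparison, the lists and the rule were chosen with earlier results of these data known. Some genes that the rule names are not reported here.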

Additional observations from a re-analysis of the deposited data

Results flagged for a closer look

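Junb differed between flight and ground. Its log2 FC with BuOE in FCT was 1.22 in flight and -0.20 on the ground, a difference of 1.42 that passed the test of the difference (BH-adjusted p = 0.0025 in limma).

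Cacna2d3 differed between regions. Its log2 FC with BuOE on the ground was 1.32 in FCT and -0.17 in CT, -0.06 in CA and 0.36 in DG, and FCT exceeded the mean of the other regions by 1.27 (BH-adjusted p = 0.0165 in limma).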

How the results depend on the processing

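The 1 DEG of GC-BuOE against GC-SAL became 8 DEGs in edgeR, 0 in DESeq2 (319 at an unadjusted p below 0.05), 2 with quantile normalization (with Cacna2d3 among them), 5 in a fit of the 6 ground AOIs (among them Cacna2d3 and Camk2n1 higher, and Per3 and Trf lower), 0 without the mean-variance trend in limma (843 at an unadjusted p below 0.05) and 0 with the AOI area as a covariate in limma (508). Leaving out each mouse gave 0 (with mouse 1 of either ground group left out) to 4 (without mouse 2 of GC-SAL or mouse 1 or 3 of FLT-BuOE), and 2 without GC-BuOE mouse 3, where Cacna2d3 was not among them. For the difference between flight and ground the count of 1 became 3 with quantile normalization, 3 with the replicate block, and 1 to 3 when a mouse was left out, always with Junb. For the difference between regions it became 2 with the replicate block and 0 to 6 when a mouse was left out (0 without mouse 1 of GC-BuOE or mouse 1 or 2 of GC-SAL, and 6 without mouse 3 of GC-BuOE). Replicate numbers name different mice, and same-numbered mice deviated together only weakly (correlations of 0.0116, 0.0596 and 0.0645), so that the replicate block, which left the ground count at 1, is an alternative only. The sign was the same under every alternative in 17 of the 20 genes named by p, in 70 of all 104 named genes and in the medians of 7 of 29 lists. The cause of these changes was not tested. In the area fit the slope rests on the 3 GC-BuOE mice, because the area did not vary within the other groups. How depth and the number of mice bear on the count of calls was not tested. Genes near the negative control have understated changes.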

Other observations

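In FCT, 10 gene values were at least 3 times the highest of the other 11 AOIs, and 4 of these were in ground mice, all in GC-SAL. Bach2, a transcription factor of B and T cells, read 152 in GC-SAL mouse 1, where the highest of the other 47 AOIs of the study was 36.2. Gm46238 read 143 in the same AOI (highest other 34.1), Ms4a1 read 115 in it (50.0), and Gm51999 read 127 in GC-SAL mouse 2 (31.8). These 4 genes were among the 8 that edgeR called and none of them passed in limma, where their BH-adjusted p was 0.319 to 0.869.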
